A study of Mus musculus with 2 samples.

Results

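Treg cells that carried transcripts of the tissue-repair genes Areg, Klrg1 and Il1rl1 were examined among single Treg cells of mouse spleen and lymph node. A cell entered the class when its UMIs of the 3 genes summed to 2 or more. UMIs, unique molecular identifiers, are the tags that count each captured RNA molecule once. The rule picked 374 of 7024 cells, 131 of 3634 in the control library and 243 of 3390 in the rescued library. The 3 genes chose the cells, so their own levels in the class are a description and no result rests on them.

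Both libraries were made from GFP+ Treg cells of male C57BL/6 mice aged 7 months given 4-hydroxytamoxifen at day 14 after birth (4-OHT). The control library pooled 5 mice of the genotype Foxp3DTR-GFP/yCd4creERT2, in which Foxp3 was expressed throughout life. The rescued library pooled 4 mice of the genotype Foxp3LSL/yCd4creERT2, in which a stop cassette silenced Foxp3 until 4-OHT activated the Cd4-driven CreERT2 recombinase and removed it. All mice also carried a tdTomato reporter that the same recombinase switches on. Each group was 1 library of pooled cells, so differences between the groups had no replicate check and no test was run. Intervals in brackets are exact 95% intervals that cover counting error only. Cells of 1 library share their mice and their capture and are not replicates.

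Treg cells of non-lymphoid tissues take part in tissue repair as well as in immune suppression. Areg encodes amphiregulin, a secreted ligand of the epidermal growth factor (EGF) receptor that promotes the growth of epithelium and muscle. Il1rl1 encodes ST2, the receptor for IL-33, a cytokine that damaged cells release. Klrg1 encodes a lectin-like inhibitory receptor that binds cadherins and marks differentiated T cells. Gata3, Batf and Rora are among the transcription factors known to act in such Treg cells. Precursors with part of this gene expression are found in spleen and lymph nodes.

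All 3 genes are protein coding, and their positions are those of mouse build GRCm38. Areg (ENSMUSG00000029378) lies on the plus strand at chr5:91139599-91148432, Klrg1 (ENSMUSG00000030114) on the minus strand at chr6:122270596-122282882, and Il1rl1 (ENSMUSG00000026069) on the plus strand at chr1:40429570-40465415. The 250 bases upstream of a transcription start are shown for Areg and Il1rl1, because cells that carried them differed in expression as described further on. The sequences are those of RefSeq, build GRCm38.p6, plus strand, written 5′ to 3′, and capitals mark the motif searched. The Areg window is chr5:91139349-91139598, with the cAMP response element TGACGTCA 61 bases before the start. The Il1rl1 window is chr1:40429320-40429569, with GATAAGG, a motif of GATA factors, 216 and 79 bases before the start.
Areg: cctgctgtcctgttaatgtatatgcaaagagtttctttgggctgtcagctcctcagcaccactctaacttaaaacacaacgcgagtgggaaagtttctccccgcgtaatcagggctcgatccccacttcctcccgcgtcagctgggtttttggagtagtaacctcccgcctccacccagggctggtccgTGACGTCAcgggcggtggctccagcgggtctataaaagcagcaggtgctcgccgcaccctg
Il1rl1: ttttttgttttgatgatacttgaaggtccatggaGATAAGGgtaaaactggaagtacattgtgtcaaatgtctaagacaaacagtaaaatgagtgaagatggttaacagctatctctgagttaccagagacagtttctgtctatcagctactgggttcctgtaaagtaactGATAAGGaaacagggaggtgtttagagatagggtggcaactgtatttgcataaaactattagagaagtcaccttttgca
Both strands were searched, and both motifs were chosen after the windows had been read. TGACGTCA occurred in 508 of 32851 windows of that length (1.55%) and GATAAGG in 640 (1.95%). A 2nd Il1rl1 start, with the window chr1:40439379-40439628, held 0 matches. A match is only a run of letters, and binding was not measured here.

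The class was a larger share of the rescued library than of the control library at every depth examined. As counted, the control share was 3.60% (3.02 to 4.26) and the rescued share 7.17% (6.32 to 8.09). A sum of UMIs depends on how deeply a cell was sequenced. Class cells had a median of 5227 UMIs against 3721 in the other control cells, and 5593 against 3775 in the rescued library. With every cell thinned to 2000 UMIs, the shares were 2.02% (1.58 to 2.53, 72 of 3569 cells) and 3.10% (2.54 to 3.74, 104 of 3357 cells). Thinning to 1000 UMIs left 0.66% (24 cells) and 1.65% (56 cells).

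The rule has a threshold, and many cells lay beside it. In the control library 121 cells stood just outside with a sum of 1 and 57 just inside with a sum of exactly 2. The rescued library had 243 and 85 such cells. A sum of 5 or more was reached by 47 control and 80 rescued cells, and a sum of 10 or more by 11 and 26. Free RNA in droplets can give single UMIs, so the same rule was applied to resting cells, defined by 2 or more UMIs of Ly6c1 and Igfbp4 together. Among these, 5 of 815 control cells (0.613%) and 5 of 133 rescued cells (3.76%, 1.23 to 8.56) met the rule as counted, at median depths of 3960 and 4839 UMIs. At 2000 UMIs per cell, 1 of 809 (0.124%, 0.0031 to 0.687) and 1 of 133 (0.752%, 0.019 to 4.12) did. In the rescued library these resting cells are few, and both intervals include the share of the class, so a background of that size was not excluded at this depth.

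**Figure D1:**
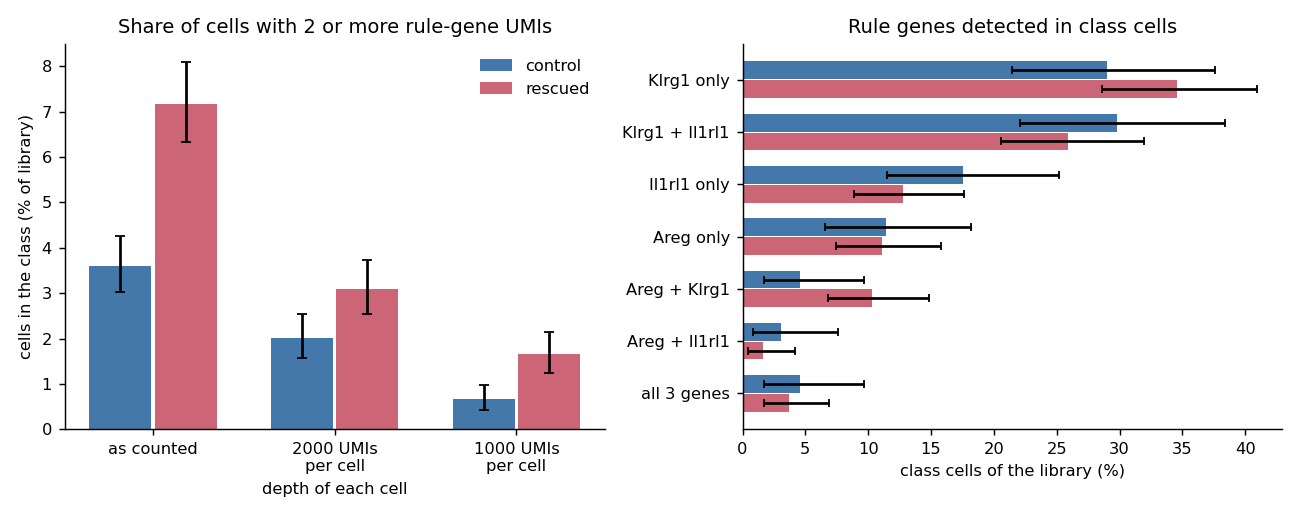
Left, cells in the class as a percentage of each library, as counted and after thinning each cell to 2000 or 1000 UMIs. Right, the rule genes with at least 1 UMI in class cells, as a percentage of the class in each library. Bars are shares and error bars are exact binomial 95% intervals. The rescued bar is the higher one at each depth (7.17% against 3.60% as counted), while Klrg1 alone and Klrg1 with Il1rl1 are the most frequent patterns in both libraries.

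The 3 rule genes differed in how their transcripts were spread over cells. Klrg1 was the most abundant, with 384 UMIs in 122 control cells and 775 UMIs in 286 rescued cells. Il1rl1 had 214 UMIs in 127 control cells and 296 in 188 rescued cells, and its highest cell held 5 and 7 UMIs. Areg was the rarest in the control library, with 107 UMIs in 64 cells, and had 426 UMIs in 122 rescued cells. Over whole libraries, in counts per 1000000 UMIs (CPM), the log2 ratio of rescued to control was 1.98 for Areg (1.68 to 2.30), 1.00 for Klrg1 (0.83 to 1.18) and 0.46 for Il1rl1 (0.20 to 0.72). A single rescued cell held 109 Areg UMIs, 25.6% of the library's total, and the next held 24. Without that cell the Areg ratio was 1.56 (1.24 to 1.89), and without the 4 highest Areg cells 1.22 (0.89 to 1.56).

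The highest Areg cell was examined by its other transcripts. It held 3943 UMIs, with 5 of Klrg1, 1 of Il1rl1 and 21 of tdTomato. It carried 13 UMIs of Trac and 4 of Cd3e, which encode parts of the T cell receptor complex. Foxp3 and Ctla4 were at 0, and Il2ra had 2. Genes induced by receptor signalling were high in it, with 14 UMIs of Nr4a1, 13 of Nr4a3, 17 of Egr1, 37 of Gadd45b, 22 of Dusp2 and 11 of Tnf. The mast cell, myeloid and B cell genes Cpa3, Kit, Fcer1g, Lyz2 and Cd79a were all at 0.

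Klrg1 was the gene that brought most cells into the class, and few cells carried all 3 genes. Of 131 control class cells, 71 had 2 or more UMIs of Klrg1, 51 of Il1rl1 and 20 of Areg, and 14 reached the rule only by adding genes. In the rescued class these numbers were 146, 58, 40 and 27. Klrg1 alone was detected in 29.0% of the control and 34.6% of the rescued class, Klrg1 with Il1rl1 in 29.8% and 25.9%, Il1rl1 alone in 17.6% and 12.8%, and Areg alone in 11.5% and 11.1%. Areg with Klrg1 was detected in 4.58% (1.70 to 9.70) and 10.3% (6.77 to 14.8), and Areg with Il1rl1 in 3.05% and 1.65%. All 3 genes were detected together in 6 control cells (4.58%, 1.70 to 9.70) and 9 rescued cells (3.70%, 1.71 to 6.91). The cells are therefore called by the rule here, as the class, and not by the name of a cell type.

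Il1rl1 was detected more often in cells with Klrg1 than in cells without it, and the values for Areg rest on few cells. These shares over all cells at 2000 UMIs per cell are a description, since cells of a library share its depth and its mice. Il1rl1 was found in 21 of 81 control cells with Klrg1 (25.9%, 16.8 to 36.9) and in 1.43% of those without. In the rescued library it was found in 19 of 172 cells with Klrg1 (11.05%, 6.78 to 16.7) and in 1.95% of those without. Klrg1 was found in 4 of 39 control cells with Areg (10.3%, 2.87 to 24.2) against 2.18% without, and in 10 of 77 rescued cells with Areg (12.99%, 6.41 to 22.6) against 4.94%. Il1rl1 was found in 5 of 39 control cells with Areg (12.8%, 4.30 to 27.4) against 1.87%, but in only 2 of 77 rescued cells with Areg (2.60%, 0.316 to 9.07) against 2.41%. As counted, the share of Klrg1 cells with Il1rl1 was 36.9% in the control and 25.2% in the rescued library, and the share of Areg cells with Klrg1 was 18.8% and 27.9%.

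Class cells carried the transcripts that define Treg and T cells. Foxp3, the factor that defines Treg cells, stood at 93.2 CPM in the control class and 80.3 CPM in the other control cells. In the rescued library the values were 591 and 454 CPM. Ctla4, an inhibitory receptor of Treg cells, had a log2 ratio of class to other cells of 0.57 in both libraries. Ikzf2 (Helios) had log2 ratios of 0.86 and 0.36, Cd3e 0.06 and -0.09, and Cd4 0.14 and -0.05 (control and rescued). Il2ra, another Treg marker, was not higher in most parts of the class. Its ratios to other cells were -0.32 and -0.37 in class cells with 2 or more Klrg1 UMIs. With 2 or more Il1rl1 UMIs they were -0.17 and -0.19, and with 2 or more Areg UMIs -0.07 and 0.61. The tdTomato transcript was found in 48.1% of control class cells and 43.6% of other control cells at 2000 UMIs, and in 44.4% and 43.0% in the rescued library. As counted, without thinning, these shares were 77.9% and 62.4%, and 60.5% and 55.5%. By flow cytometry the paper found a much smaller labelled share of Treg cells in control than in rescued mice. A tdTomato UMI is therefore not a measure of labelled cells here. Foxp3 was detected in 47 of 131 control class cells (35.9%) and 211 of 243 rescued class cells (86.8%), against 25.9% and 70.6% of other cells. The Foxp3 alleles differed between the libraries, so these shares are compared within a library only.

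Other cell types that express the rule genes were looked for by fixed marker lists, because group 2 innate lymphoid cells (ILC2), mast cells and basophils also carry Il1rl1 or Areg. Of 8 ILC2 markers 6 were in the table, and they summed to 8 UMIs in the control class (10.1 CPM) and 15 in the rescued class (9.21 CPM), against 1.57 and 3.16 CPM in the other cells. Most of these UMIs were of Il17rb, with 6 and 12, while the ILC2 cytokine gene Il13 had 1 and 0 UMIs and 3 and 4 of the 6 genes were at 0. The 3 measured genes of 11 mast cell and basophil markers had 0 and 1 UMIs in the class. For CD8 T and NK cells, 7 of 10 markers summed to 139 and 36.2 CPM in the class against 62.7 and 44.6 CPM outside it. Nkg7 gave 88 and 29 of these UMIs, and Cd8a, Klrb1c, Klrk1 and Eomes were at 0 in both classes. B cell markers (9 of 10) stood at 55.4 and 72.4 CPM against 57.8 and 70.9 CPM. Myeloid markers (9 of 12) stood at 239 and 248 CPM against 166 and 198 CPM, nearly all of it Cst3, and red blood cell genes had 0 and 1 UMIs.

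Against all other cells of the same library, the class was high in genes of migrating effector cells and low in genes of resting cells. A gene counted as higher or lower when its ratio of CPM was at least 1.5-fold in the same direction in both libraries. Of 7527 genes with enough UMIs, 129 were higher (1.71%) and 131 lower (1.74%) in the class, and the median log2 ratio over all genes was 0.00 in the control and -0.01 in the rescued library. Class cells were also deeper and had a lower mitochondrial share, with medians of 8.25% against 9.47% in the control and 7.72% against 9.16% in the rescued library. With the other cells weighted to the depth of the class, 87 and 131 genes passed.

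The genes with the highest ratios encode cytotoxic, migratory and calcium-binding proteins. Gzmb, which encodes granzyme B, had 84.4 CPM in the control class against 9.62 CPM outside it and 216 against 19.7 CPM in the rescued library, log2 ratios of 3.13 (2.69 to 3.56) and 3.46 (3.22 to 3.69). It was found in 15 of 131 and 34 of 243 class cells, and 1 cell held 20.9% of its control and 1 cell 27.6% of its rescued class UMIs. Gzmb passed the minimum of 10 expected UMIs in the control library through the class itself, since the level of the other cells alone would give 7.64, and 4 of the 129 higher genes passed in that way. Ccr2, a chemokine receptor that guides cells to inflamed tissue, had 181 against 26.2 CPM and 298 against 42.9 CPM, log2 ratios of 2.79 and 2.80. S100a4 had 2277 CPM in the control class against 275 CPM outside it, and 2112 against 426 CPM in the rescued library, log2 ratios of 3.05 (2.97 to 3.13) and 2.31 (2.25 to 2.37). S100a6, its neighbour among the S100 genes, had ratios of 2.86 and 2.03. The remaining 11 of the 15 highest genes had ratios between 1.15 and 2.69 in the control and between 1.17 and 1.94 in the rescued library. They include Lgals1 (galectin 1), the cytoskeletal gene Vim, the transcription factor genes Id2 and Rora, Gna15, Nav2, Sytl2, Dusp5, Cdc25b, Stmn1 and Anxa2.

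These ratios were smaller when the clusters of the cells were matched. The genes named here were not left out when the clusters were made, and Gzmb, Ccr2, S100a4 and S100a6 are leading genes of cluster 11. Smaller ratios after matching can therefore be built in and are no separate result. With the other cells weighted to the cluster makeup of the class, the mean log2 ratio of both libraries was 1.70 for Gzmb, 1.02 for Ccr2, 0.77 for S100a4 and 0.59 for S100a6, against 3.29, 2.79, 2.68 and 2.44 unweighted. Stmn1 (-0.05) and Anxa2 (-0.12) then lost their direction. Id2 had 0.98 and Nav2 0.86. Over all genes 37 were higher and 44 lower under this weighting.

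The 10 genes with the lowest ratios include markers of resting and lymph node-homing T cells. Ccr7, which guides T cells into lymph nodes, had 57.9 CPM in the control class against 226 CPM outside it, and 32.5 against 94.98 CPM in the rescued library, log2 ratios of -1.96 and -1.55. Bcl2, a survival gene, had ratios of -1.57 and -1.38. Igfbp4 had 23 UMIs in the control class, 65.2% of them in 1 cell, and 0 in the rescued class, at least 16.6-fold lower if 3 UMIs are allowed. Plac8 had 0 UMIs in the control class, at least 4.95-fold lower by the same bound, and 2 UMIs in the rescued class, a log2 ratio of -3.99 (-7.04 to -2.12). Dapl1 had 7 UMIs in the control class, 85.7% of them in 1 cell, and 0 in the rescued class, at least 7.53-fold lower. Tnfsf8, the gene of the CD30 ligand, had ratios of -1.75 and -1.79 and the tetraspanin gene Cd9 -1.74 and -1.74. Capn3 and Atp1b1 had ratios between -1.71 and -1.41. The interferon-induced Tgtp1 had 3 and 9 UMIs in the class, with ratios of -1.90 (-4.19 to -0.34) and -1.48 (-2.63 to -0.53).

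**Figure D2:**
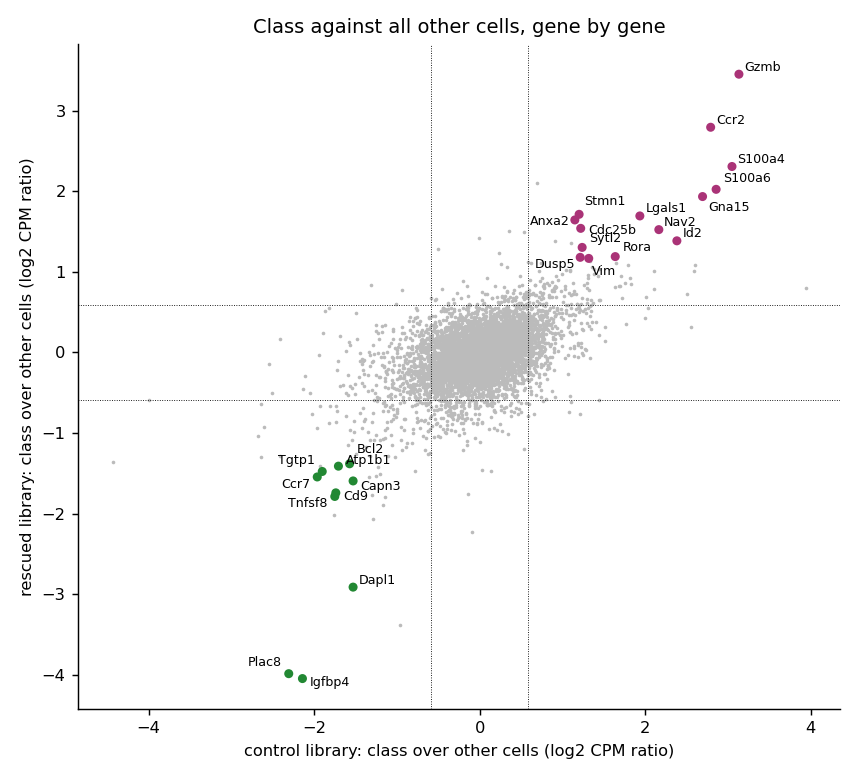
Each point is a gene, placed by its log2 CPM ratio of class cells to other cells in the control library (x axis) and in the rescued library (y axis). Grey points are all 7527 genes tested, purple the 15 highest and green the 10 lowest named genes, and dotted lines mark 1.5-fold. Plac8, Igfbp4 and Dapl1 are drawn with 3 UMIs in a library where they had 0. Gzmb, Ccr2, S100a4 and S100a6 lie farthest to the upper right, with ratios of at least 2.79, 2.31 and 2.03 for the last 3 in both libraries.

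Among transcription factors known from tissue Treg cells, 5 of 12 tested genes were higher in the class and 0 lower, with medians of 1.21 in the control and 0.59 in the rescued library. The study also singled out Maf and Ahr of this list on these libraries, so the count is not independent evidence. Gata3, which drives Il1rl1 expression in T helper 2 cells, had 304 against 147 CPM in the control and 333 against 164 CPM in the rescued library, log2 ratios of 1.05 and 1.02. It was found in 42.0% and 44.4% of class cells at 2000 UMIs against 22.05% and 25.7% of other cells, and as counted in 72.5% and 73.3% against 38.3% and 42.8%. Id2 had ratios of 2.38 and 1.39, and Rora 1.64 and 1.19. Batf (1.30 and 0.61) and Bhlhe40 (1.22 and 0.60) passed narrowly in the rescued library, where both fell below 1.5-fold without the cell richest in each (0.56 and 0.29). Pparg, the factor of fat tissue Treg cells, had 1 and 6 UMIs in the class. Of 4 tested factors of other T cell lineages 0 were higher, which a background of 1.71% would also give, and Bcl6 of follicular T cells was lower (-1.004 and -0.750).

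The partners of the rule genes in their pathways were measured as well. IL-33 signals through ST2 and its co-receptor Il1rap by way of Myd88, Irak kinases and Traf6 to NF-κB. Of 14 tested genes of this pathway 0 were higher and 0 lower, with medians of 0.10 and 0.11. The shares of 1.71% higher and 1.74% lower over all genes would also give 0. Nfkbia and Tnfaip3, both induced by NF-κB, had the values 0.62 and 0.43, and 0.84 and 0.41. Il1rap had 8 and 15 UMIs in the class, too few for the comparison. Among other receptors of the IL-1 family, the decoy receptor gene Il1r2 was higher, with log2 ratios of 1.82 and 0.92, and Il18r1 had 1.04 and 0.50. Of 12 genes that make, release or bind EGF receptor ligands, Adam17 and Adam10, the sheddases that free such ligands, had enough UMIs and ratios of 0.54 and -0.02, and 0.31 and 0.10. The other ligand genes Hbegf, Btc, Egf, Tgfa and Epgn had 0 to 7 UMIs each in either class. Inpp5d and Ptpn6, phosphatases used by inhibitory receptors, had ratios of 0.07 and 0.37, and -0.11 and -0.08. Cd200r1, another inhibitory receptor gene in that list, was higher (1.64 and 1.12) and the only one of its 4 tested genes to be so. Ptpn11 had 0.01 and -0.34.

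Genes of migration were high in the class, and those of homing in part. Over all genes tested 1.71% were higher and 1.74% lower. Of 11 tested genes for migration and S100 proteins 9 were higher, with medians of 1.37 and 1.17, among them S100a10 (1.43 and 0.96), S100a11 (1.76 and 0.86) and Crip1 (1.10 and 1.36). Lgals3 and Anxa1 had too few UMIs over all cells of a library to be counted, with log2 ratios of 4.19 and 3.35, and 5.63 and 4.98. Of 15 homing genes 3 were higher, namely Ccr2, Itgb1 (1.01 and 0.70) and Ccr6 (0.76 and 0.72). Ccr9, a receptor for the small intestine, was lower (-1.35 and -0.99), and so was Cxcr5 of B cell follicles (-1.30 and -1.77). Ccr3 (4.88 and 3.75), Cxcr6 (3.17 and 2.23) and Ccr10 (2.83 and 3.05) were below the minimum and are given as values. Within clusters Itgb1 lost its direction (-0.02), and Ccr6 fell below 1.5-fold in the control library without its highest cell (0.55). The study had named Ccr4, Cxcr3, Ccr6 and Itgae on these libraries.

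Suppressor and activation genes differed within their lists, beside shares of 1.71% higher and 1.74% lower over all genes. Of 11 suppressor genes 3 were higher: Gzmb, Lgals1 and Fgl2 (2.51 and 0.73), the last a secreted inhibitor of T cells. Lag3 was lower (-0.63 and -1.26). Il10 had 1 UMI in the control class and 71 in the rescued class, 56.3% of them in 1 cell. Of 11 activation and costimulation genes 4 were higher, which were Tnfrsf9 (1.33 and 0.78), Cd44 (1.03 and 0.82), Tnfrsf4 (0.91 and 0.83) and Tnfrsf18 (0.77 and 0.59). Tnfrsf18, Cd44 and Icos were picked by the study on these libraries, and Tnfrsf18 fell to 0.56 in the rescued library without its highest cell. Of 8 genes induced by the T cell receptor (TCR) 4 were higher: Tnfrsf9, Penk (3.94 and 0.80), Egr2 (0.90 and 1.38) and Nr4a1 (0.69 and 2.10). Without 1 cell, Nr4a1 had a ratio of -0.08 in the control library.

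Resting genes were low in the class as a group. Of 16 tested genes 8 were lower and 0 higher, with medians of -1.28 in the control and -0.60 in the rescued library. Tcf7, a factor of resting and stem-like T cells, had ratios of -1.23 and -1.42, Bach2 -1.25 and -1.02 and Actn1 -2.41 and -1.28. Ly6c1 (-2.65 and -0.64) turned to a mean of 0.15 within clusters. Klf2 (-0.25 and 0.30) and S1pr1 (-0.53 and 0.45) had opposite signs in the libraries. The other lists moved in few genes, beside shares of 1.71% higher and 1.74% lower over all genes. Fos of 12 dissociation stress genes, Stmn1 of 6 cell cycle genes and Fabp5 of 6 lipid genes were higher. Of 5 type 2 cytokine and receptor genes 0 were higher, and Oasl2 of 11 interferon genes was lower. Of 10 survival genes Bcl2a1d (1.69 and 0.83) and Bcl2l1 (1.18 and 0.60) were higher and Bcl2 lower.

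The class was not uniform, and cells that carried Areg alone differed from those that carried Klrg1 or Il1rl1 alone. Each of these 3 subsets had 2 or more UMIs of its gene and 0 of the other 2. They held 15, 38 and 23 control cells and 27, 84 and 31 rescued cells for Areg, Klrg1 and Il1rl1. Median depths ran from 4320 to 5601 UMIs in the control library and from 4783 to 5502 in the rescued library.

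Areg-only cells were high in immediate early genes, which TCR signalling induces. Egr1 stood at 356 CPM (233 to 522) in control and 612 CPM (489 to 757) in rescued Areg-only cells, against 47.8 and 47.2 CPM in the cells outside the class. Klrg1-only cells had 21.3 and 52.3 CPM of Egr1, and Il1rl1-only cells 7.44 and 14.7 CPM. Nr4a1, an orphan receptor gene induced soon after TCR contact, had 192 CPM in control Areg-only cells, from 14 UMIs in 2 cells. In the rescued library it had 410 CPM, from 57 UMIs in 13 of 27 cells, against 1.94 CPM in Klrg1-only and 9.77 CPM in Il1rl1-only cells. Egr2 (233 and 259 CPM) and Tnf (95.9 and 238 CPM) were likewise highest in Areg-only cells, where Il1r2 stood at 137 and 216 CPM. The intervals of Areg-only cells did not overlap those of the other 2 subsets for Egr1 and Egr2 in both libraries. These intervals take the UMIs of 1 cell as independent and leave out the spread between cells, so they do not test a difference between subsets. How many of all genes had such a gap was not counted, so it describes these picked genes only. Over the 8 TCR-induced genes the median log2 ratio to other cells was 2.59 and 2.17 in Areg-only cells. It was -0.84 and 0.06 in Klrg1-only cells and -0.34 and -1.35 in Il1rl1-only cells. Over the 12 dissociation stress genes the medians were 0.56 and 0.26, -0.04 and 0.07, and 0.31 and 0.11 in that order. These medians cover genes that went both ways in class cells with 2 or more Areg UMIs, whatever the other rule genes. Ier2 had 1.75 and 1.76, Zfp36 1.72 and 2.26 and Junb 1.73 and 1.30. Jun (-1.83 and -1.34) and Hspa1a (-0.26 and -2.22) were negative. Whether TCR signalling or the handling of the cells gave the immediate early transcripts was not tested.

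Klrg1-only cells were high in Gzmb, Penk and S100 genes. Gzmb had 111 CPM (72.3 to 162) in control and 391 CPM (339 to 449) in rescued Klrg1-only cells. It was at 0 in control Areg-only cells, and the 10 Gzmb UMIs of rescued Areg-only cells came from 1 cell. S100a6 had 2272 and 2021 CPM in Klrg1-only cells, 901 and 2076 CPM in Il1rl1-only cells and 274 and 432 CPM in Areg-only cells, against 249 and 519 CPM outside the class. S100a4 was also high in control Areg-only cells (2138 CPM). Penk, which encodes the opioid precursor proenkephalin, had 949 CPM in control Klrg1-only cells, 223 UMIs in 9 of 38 cells, and 171 CPM in rescued ones, against 34.5 and 60.2 CPM outside the class. Fgl2 stood at 264 and 229 CPM in Klrg1-only cells.

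Il1rl1-only cells held more Klf2, a factor of recirculating T cells, than the other subsets and less Tnfrsf4 and Tnfrsf9. Klf2 stood at 1161 and 1045 CPM in them, against 852 and 389 CPM in the cells outside the class. In Areg-only cells it was 110 and 7.20 CPM. Tnfrsf4 (OX40) had 372 and 405 CPM in Il1rl1-only cells and 979 and 1467 CPM in Klrg1-only cells. In Areg-only cells it had 1302 and 3131 CPM, an order seen in both libraries. Its counting intervals did not overlap in the rescued library, with the same limits as for Egr1. Outside the class it had 458 and 778 CPM. Tnfrsf9 had 14.9 and 58.6 CPM in Il1rl1-only cells against 107 and 194 CPM outside the class. Over the 11 activation genes the median log2 ratio of Il1rl1-only to other cells was -0.28 and -0.53. Batf stood at 208 and 186 CPM in Il1rl1-only and 891 and 763 CPM in Areg-only cells. The subsets differed less in Gata3, from 178 to 315 CPM in the control and from 234 to 324 CPM in the rescued library. Ccr10, a receptor for skin, had 32 UMIs in 6 of 31 rescued Il1rl1-only cells (156 CPM) and 0 in the control ones. Lgals3 was high in rescued Il1rl1-only cells (107 CPM) and control Klrg1-only cells (128 CPM).

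**Figure D3:**
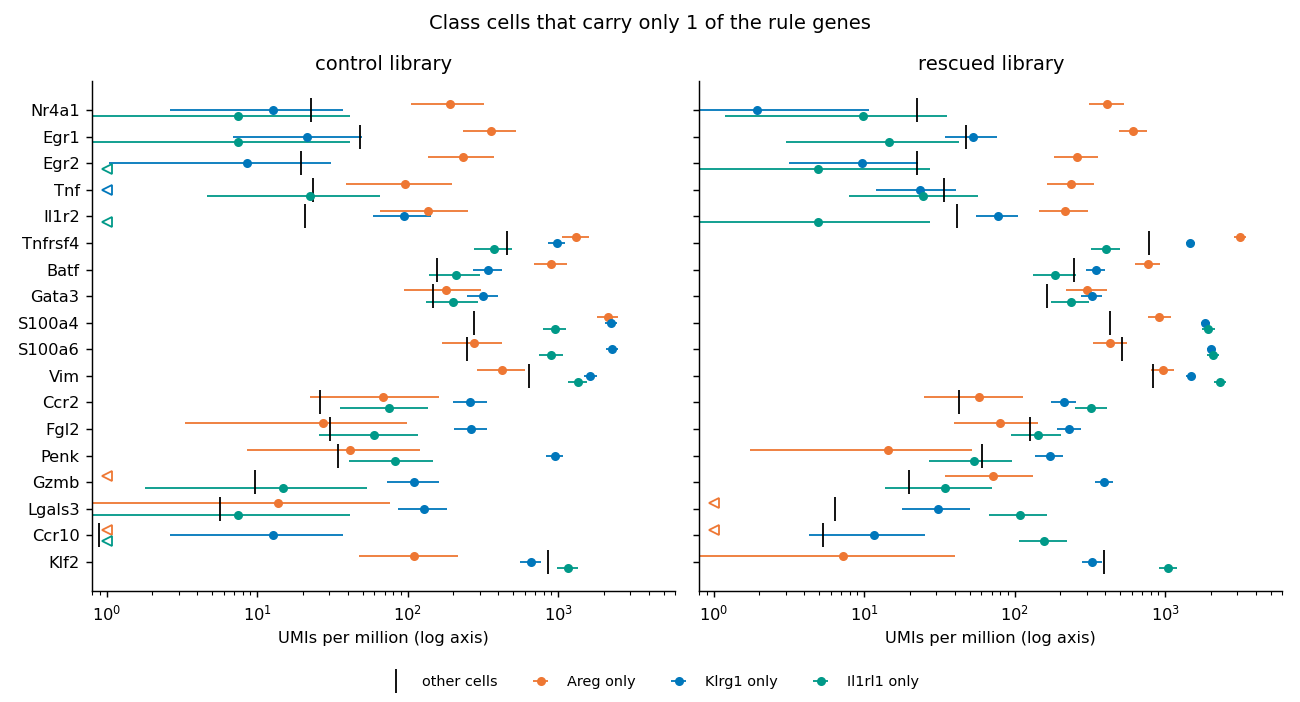
CPM (log axis) of 18 genes in class cells that carried only Areg, only Klrg1 or only Il1rl1, in the control library (left) and the rescued library (right). Points are values with exact Poisson 95% intervals, open triangles at the left edge are genes with 0 UMIs and black ticks are the cells outside the class. Areg-only cells lie to the right for Nr4a1, Egr1, Egr2, Tnf and Tnfrsf4, and to the left for Klf2, while Klrg1-only cells lie to the right for Gzmb and Penk.

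The cells of both libraries were also grouped into 12 clusters made without the 3 rule genes, and class cells were found in most of them. Cluster 11, led by S100a4, S100a6, Ccr2, Lgals1, Lgals3 and Gzmb, had the highest share, 34 of 122 in the control library (27.9%, 20.1 to 36.7) and 71 of 239 in the rescued library (29.7%, 24.0 to 35.9). Cluster 0, led by Ccl5, Epcam, Nav2, Cxcr3 and Penk, had 41 of 200 (20.5%, 15.1 to 26.8) and 92 of 918 (10.02%, 8.16 to 12.1). Cluster 4, in which Nr4a1, Egr2, Egr1 and Il1r2 are among the leading genes, had 22 of 302 (7.28%) and 41 of 399 (10.3%). Cluster 5, led by the resting genes Ly6c1 and Igfbp4, had 4 of 1182 control cells (0.338%) and 1 of 57 rescued cells. The clusters themselves differed in size between libraries. Cluster 11 held 3.36% of control and 7.05% of rescued cells, cluster 0 held 5.504% and 27.1%, and cluster 5 held 32.5% and 1.68%.

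The subsets lay in different clusters. Of Areg-only cells 9 of 15 control and 17 of 27 rescued cells were in cluster 4. Of Klrg1-only cells 19 of 38 and 40 of 84 were in cluster 0, and 11 and 23 in cluster 11. Il1rl1-only cells were in cluster 6, led by Il18r1, Itgb1 and Klf2, for 7 of 23 control cells, and in cluster 11 for 14 of 31 rescued cells. The largest part of the class in any cluster was 31.3% of control and 37.9% of rescued class cells, both in cluster 0.

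**Figure D4:**
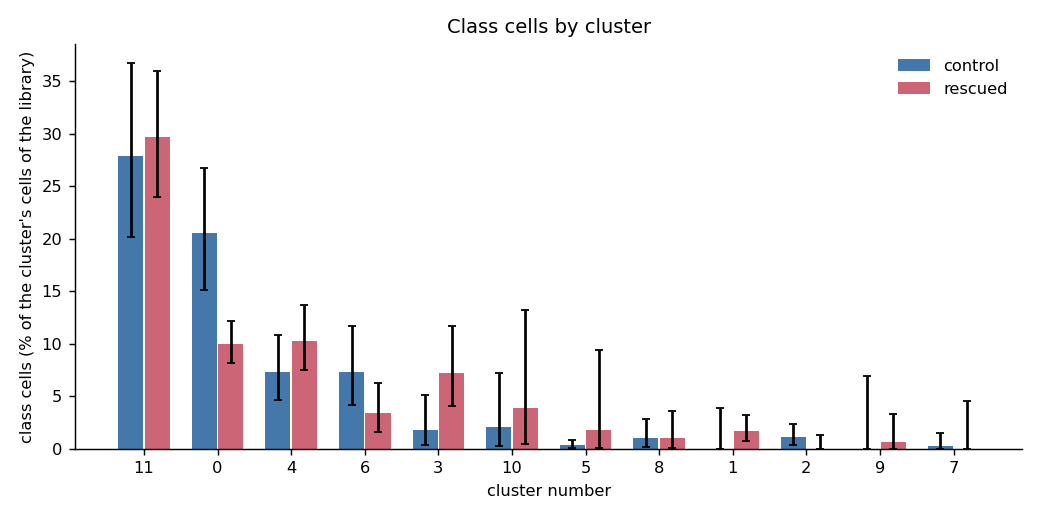
Class cells as a percentage of the cells of each cluster, for the control and rescued libraries, with exact binomial 95% intervals. Clusters are ordered by the sum of both shares and named by number only. Cluster 11 is highest in both libraries (27.9% and 29.7%), and cluster 0 is higher in the control library (20.5% against 10.0%).

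Other ways of defining effector cells overlapped with the class to different degrees at 2000 UMIs per cell. Cells rich in S100a4 and S100a6, with 4 or more UMIs of them together, made up 47.3% of the control class (38.5 to 56.2) and 51.0% of the rescued class (44.6 to 57.5), against 6.31% and 12.8% of other cells. The class in turn made up 22.2% and 23.7% of those S100-high cells. Cells with 2 or more UMIs of Gzma and Gzmb were 0.763% and 7.82% of the class against 0.233% and 1.41% of other cells. Itgae, which encodes the CD103 integrin of epithelial T cells, reached 2 UMIs in 8.40% and 18.9% of the class against 2.97% and 15.03% of other cells. Il10 had a UMI at this depth in 0 of 131 control class cells, for which 3 counts allow up to 2.29% and the exact interval up to 2.78% of cells with a UMI, which is no limit on cells that express it. It had one in 3.70% of rescued class cells, against 0.524% and 1.45% of other cells. The proliferation genes Mki67 or Top2a were found in 3.82% and 10.7% of the class against 2.15% and 3.89%. As counted, the shares of control and rescued class cells were 7.63% and 13.6% for the granzymes, 31.3% and 55.1% for Itgae, 0.763% (1 cell) and 5.76% for Il10 and 15.3% and 27.2% for the proliferation genes.

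Inside the class, rescued cells were compared with control cells. Of 6337 genes with at least 50 UMIs over class cells, 329 were at least 1.5-fold higher (5.19%) and 235 at least 1.5-fold lower (3.71%) in the rescued class, with a median of 0.00. The minimum is a sum over both classes, and the rescued class holds the larger part of the UMIs, so it favours genes high in rescued cells. At the level of the lower group, 141 of the 329 higher and 63 of the 235 lower genes would have missed the minimum, as would 9 of the 10 highest and 5 of the 10 lowest named genes. Such genes had to differ to be counted, here and in the lists. The class of the rescued library lay more in cluster 0 (37.9% against 31.3%) and that of the control library more in cluster 6 (11.5% against 3.70%). Control class cells weighted to the clusters of the rescued class gave 403 higher and 317 lower genes.

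Several of the highest genes also stood higher in rescued cells outside the class. Foxp3 had a log2 ratio of rescued to control of 2.66 (2.32 to 3.03) in the class and 2.50 (2.41 to 2.59) in the other cells. The groups carried different engineered Foxp3 alleles. An effect of the allele on the transcript count therefore cannot be told apart from a difference in expression. Ccr9 had 95 UMIs against 8, a ratio of 2.53 and of 2.17 outside, and Ccr10 72 against 5, ratios of 2.81 and 2.58. The granzyme gene Gzma had 160 against 7 UMIs (3.48), with 52.5% of the rescued UMIs in 1 cell, and a ratio of 5.36 outside. Hpgd, which encodes the enzyme that degrades prostaglandin E2, had 52 UMIs in 20 rescued class cells and 0 in the control class, at least 8.45-fold higher if 3 UMIs are allowed. Il10 had 71 UMIs against 1 (5.11, 2.59 to 10.4) and a ratio of 2.33 when each library was left without its highest cell and the control class, then at 0, was set to 3 UMIs. Gbp2b, an interferon-induced GTPase gene, had 65 UMIs against 1 (4.99, 2.46 to 10.3), and a ratio of 1.91 outside.

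Tnf and Tfrc had larger ratios inside the class than outside it. Tnf had 134 UMIs in 46 rescued class cells and 13 in 11 control class cells, a log2 ratio of 2.33 (1.51 to 3.28) against 0.54 outside. The difference of the ratios was 1.79 (0.94 to 2.63). Tfrc, the transferrin receptor gene of growing cells, had 46 against 6 UMIs, 1.90 inside and 0.28 outside, a difference of 1.62 (0.36 to 2.87). Adam8 was higher both inside and outside, with 61 against 7 UMIs, 2.09 inside and 1.45 outside, and the difference of 0.64 had an interval of -0.61 to 1.89.

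TCR-induced genes showed the same pattern. Of 9 tested genes 5 were higher and 1 lower in the rescued class, beside 5.19% and 3.71% of all genes. The median was 0.68 in the class and 0.15 in the other cells. Nr4a1 had a ratio of 1.40 (0.82 to 2.02) in the class and -0.01 outside, a difference of 1.41 (0.80 to 2.02), and 2.01 in the class without the highest cell of each library. Egr1 had 0.94 against -0.02, Nr4a3 1.46 against 0.15 and Myc 0.82 against -0.90. Egr2 had 0.68 in the class, which fell to 0.42 without the highest cells. Among the one-gene subsets Nr4a1, Egr1 and Egr2 were highest in Areg-only cells, which made up 11.5% of the control and 11.1% of the rescued class. Cells with Areg and Klrg1 made up 4.58% and 10.3%. Over all rescued class cells with 2 or more Areg UMIs, Nr4a1 had 136 UMIs, 57 of them in Areg-only cells, and Egr1 178, of which 85. In the control class these were 19 and 14 UMIs for Nr4a1 and 35 and 26 for Egr1. The part of this makeup in the ratios was not tested.

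Penk and Ccl5 had the opposite pattern, lower in the rescued class and higher in rescued cells outside it. Penk had 171 UMIs in 36 rescued class cells and 421 in 24 control class cells, 27.3% of the latter in 1 cell, a ratio of -2.34 (-2.60 to -2.08) in the class and 0.80 outside. Without the highest cell of each library the ratio in the class was -2.07. The chemokine gene Ccl5 had 366 against 488 UMIs, 32.2% of the latter in 1 cell, a ratio of -1.45 in the class and 0.79 outside. Nkg7, of cytotoxic granules, had 29 against 88 UMIs, 51.1% of the latter in 1 cell, a ratio of -2.64 in the class and -0.60 outside. The rest of the 10 lowest genes had ratios between -1.68 and -1.26, among them Tcf7 (-1.55), the heat shock genes Hspa1a and Hspa1b (-1.68 and -1.26, and -1.15 and -0.99 outside), Gclm, Ubr7, Hells and Cxcr6 (-1.32).

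Several genes had smaller ratios of rescued to control inside the class than outside it. Of those given here, S100a4, S100a6, Id2 and Fgl2 were among the genes higher in the class in both libraries. Prdm1, Maf, Cxcr3 and Itgae were not. Of 13 migration and S100 genes 0 were higher in the rescued class, which a share of 5.19% over all genes would also give. In this list 1 gene (Lgals3, -0.67) was lower, and the median was 0.13 against 0.44 in the other cells. S100a4 had -0.11 in the class and 0.63 outside, a difference of -0.74 (-0.84 to -0.64), and S100a6 0.23 and 1.06. Among tissue Treg factors 2 of 12 were higher, Ahr (0.79) and Ikzf3 (0.71), with a median of 0.19 against 0.57 outside. Prdm1, which encodes Blimp-1, had 0.30 in the class and 1.79 outside, a difference of -1.48 (-1.998 to -0.970). Maf had 0.21 and 0.90, and Id2 -0.53 and 0.47. Gata3 had 0.13 in the class and 0.16 outside. Ratios were also smaller inside than outside for Fgl2 (0.29 and 2.07), Cxcr3 (0.12 and 1.45) and Itgae (0.94 and 2.13).

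The remaining lists inside the class were as follows, beside shares of 5.19% higher and 3.71% lower over all genes. Of 7 Treg identity genes 3 were higher: Foxp3, whose allele differed between the groups, Ctla4 (0.83) and Il2ra (0.66). The median of the 7 genes was 0.43, near that of 0.41 outside. Of 14 suppressor genes 7 were higher, with a median of 0.56 against 0.76 outside, among them Gzmb (1.36), Lrrc32 (1.24) and Entpd1 (0.85). Of 11 activation genes Icos (0.72), Tnfrsf4 (0.68) and Tnfrsf1b (0.69) were higher and Pdcd1 lower (-0.94). Of 18 homing genes 6 were higher and 2 lower. Ctla4, Il2ra, Lrrc32, Icos, Ahr and Itgae were picked by the study on these libraries. Of 13 genes of IL-33 receptor signalling 0 were higher and 0 lower, which those shares would also give (median -0.19, and 0.00 outside). Of 10 resting genes 4 were lower and Satb1 higher (0.81, against -1.34 outside). Among 10 interferon genes Ifit1 (0.84) and Ifit3 (1.17) were higher, and Ifit3 fell to 0.40 without the highest cell of each library, the rescued one of which held 55.0% of its UMIs. The other lists had few or no called genes: Fabp5 (0.86) of 6 lipid genes, Fos (0.71) of 12 dissociation stress genes and Mki67 (0.88) of 8 cell cycle genes were higher, while Plin2 (-0.66), Mcm5 (-0.95), Il18rap (-0.79) and, of 9 survival genes, Bcl2 (-0.75) and Fas (-0.71) were lower. Of the few tested EGF ligand, Klrg1 partner, type 2 and other lineage genes 0 were called, which those shares would also give.

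**Figure D5:**
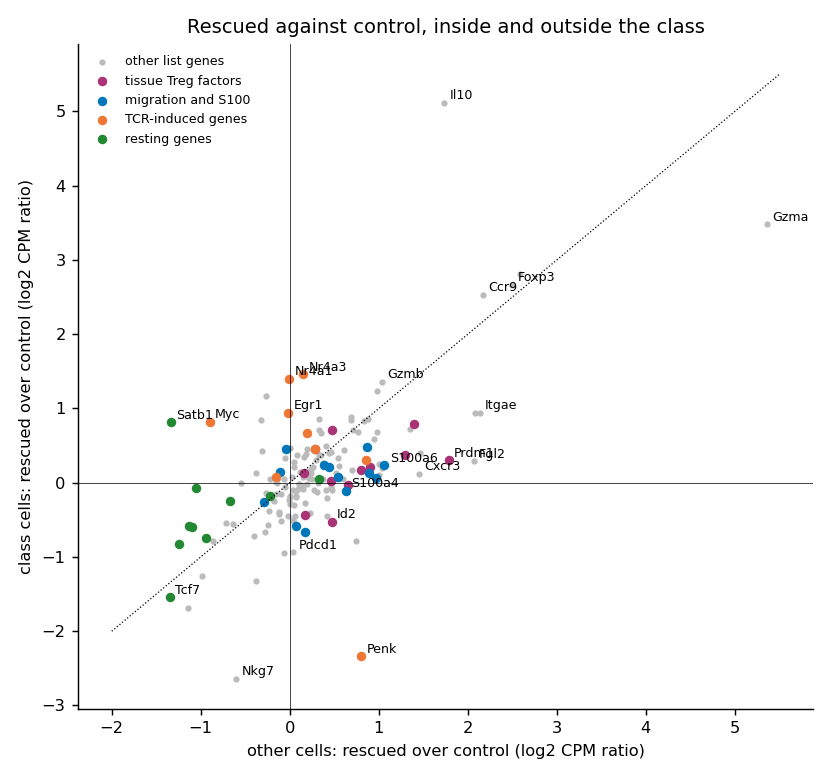
Log2 CPM ratio of rescued to control for genes of the fixed lists, in the other cells (x axis) and in class cells (y axis). Colours mark 4 lists and the dotted diagonal marks equal ratios. Nr4a1, Nr4a3, Egr1, Myc and Satb1 lie above the diagonal, while Penk, Prdm1, Fgl2, Cxcr3 and S100a4 lie below it.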

How the data were processed

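Single-cell RNA sequencing had been done on GFP+ Treg cells (TCRβ+ CD4+ CD8- NK1.1-) from pooled spleen and lymph nodes, sorted by flow cytometry, with the 10x Chromium 3′ v3 chemistry. Per the submitters' processing notes, Cell Ranger 3.0, Seurat 3.1.5 and build GRCm38 were used, and the authors had added the tdTomato sequence to the reference. The authors deposited UMI counts of 16098 genes per cell, not normalized, which were used here. A second deposited table, of log2 normalized values of the same cells, was not used. Both libraries share 1 table, which holds 3634 control and 3390 rescued barcodes. In it 6859 of 7024 cells exceed a mitochondrial share of 5%, the limit named in the methods, and no such limit was applied here. The libraries share 3 barcodes, 1 of them with a class cell.

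The members and the gene lists were chosen with earlier results of these data known. UMIs were summed over class cells and over other cells of each library and divided by the summed total (CPM). Library totals were 15446201 UMIs for control and 15537656 for rescued cells, of which the class held 793948 and 1628747. A gene entered the comparison of class and other cells with at least 10 UMIs expected in the class of each library, and the comparison inside the class with at least 50 UMIs over class cells. Genes were called past 1.5-fold. The 95% intervals were exact conditional binomial for ratios, exact Poisson for CPM and Clopper-Pearson for shares, and the interval of a difference of log2 ratios was a normal approximation from the counts. The named genes were the 15 highest and 10 lowest by the library with the smaller ratio, and inside the class the 10 highest and 10 lowest. The rule genes and the mitochondrial, ribosomal protein, immunoglobulin, TCR, Gm and Rik genes were left out of the ranking. Listed genes could be named with their values.

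Clusters (12) were made with scanpy 1.11.5 from 2000 variable genes, 40 principal components and 15 neighbours, without the rule genes and without mitochondrial, immunoglobulin and TCR genes. Thinning to 2000 UMIs left out 65 control and 33 rescued cells, none of them in the class. No doublets were removed, and an alternative left out the 3.5% of cells of each library with the highest doublet scores. Further alternatives changed the class rule, the depth and cluster makeup of the comparison cells, the minimum of UMIs, the fold and the scaling. The calculations ran in Python 3.11.15 with numpy 2.4.6, scipy 1.17.1, pandas 2.3.3 and matplotlib 3.10.9, and the ratios were tested on simulated data.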

Additional observations from a re-analysis of the deposited data

Results flagged for a closer look

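Of the listed and named genes, 3 passed 1.5-fold in opposite directions in the 2 libraries when class cells were set against other cells. These differences were not tested. Myc, a growth factor-induced transcription factor gene, had a log2 ratio of class to other cells of -0.94 in the control and 0.78 in the rescued library, 1.72 apart. Satb1, a chromatin organizer of T cells, had -1.31 and 0.84, 2.15 apart. Nkg7, of cytotoxic granules, had 1.45 and -0.59, a difference of -2.04, and 51.1% of its UMIs in the control class came from 1 cell. No group had the 4 or more samples that a check for a sample far from the others needs.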

How the results depend on the processing

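No paired analysis was possible because there was a single library for control and for rescued cells. The share of class cells in the control and rescued libraries was 2.04% and 4.66% with a sum of 3 or more UMIs, 4.40% and 9.07% among cells with at most 10% mitochondrial UMIs, 2.02% and 3.10% at 2000 UMIs and 0.66% and 1.65% at 1000 UMIs. The count of genes higher and lower in the class (129 and 131) was 37 and 44 with other cells weighted to its clusters, 40 and 48 with the class made by 2 or more Areg UMIs (whatever the other rule genes), 71 and 87 by 2 or more Il1rl1 UMIs, 85 and 247 with each gene left without its highest class cell, 74 and 75 with at least 20 expected UMIs, and 28 and 39 at 2-fold. Inside the class (329 and 235) it was 152 and 103 by that Areg class, 200 higher by that Il1rl1 class, and 700 and 562 with at least 20 UMIs. The alternatives without the highest cells were chosen after seeing the data. The larger or smaller counts under another minimum follow from the number of genes tested; otherwise the cause was not tested.

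Directions turned for 24 gene values. For the mean log2 ratio of class to other cells these were, by clusters, Stmn1 -0.048, Anxa2 -0.12, Itgb1 -0.018 and Ly6c1 0.15, in the class by Il1rl1 UMIs, Il1r2 -1.21, Tnfrsf4 -0.0099, Tnfrsf9 -0.36, Fabp5 -0.20, Nr4a1 -0.27 and Egr2 -2.22, in the class by Areg UMIs, Lag3 0.32 and Penk -1.49, and in the class by Klrg1 UMIs, Egr2 -0.19. For the ratio of rescued to control they were, in the class by Il1rl1 UMIs, Ahr -0.037, Il18rap 0.64, Lgals3 0.66, Cd274 -0.022, Tnfrsf4 -0.31, Itgb8 -0.55, Fabp5 -0.31, Myc -0.79 and Fos -1.09, and for Ccr7 0.30 with 3 or more UMIs and 0.080 by clusters. The other gene values moved without turning in 353 and 219 cases and stayed within the counting error in 1677 and 1440. With 1 library of pooled mice per group, mouse, capture and genotype cannot be told apart, and genes with few UMIs in few cells rest on those cells.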
